A study of Mus musculus with 16 samples.

Results

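The question addressed here is whether osteoclast precursors respond differently to loss of CD45 when they also carry an activating duplication in the receptor FLT3. All 16 sequenced cultures of the series entered one 2 by 2 design, with 4 cultures in each of 4 genotypes, and the quantity described is the interaction. It is the effect of Ptprc loss with the FLT3 duplication (FLT3 ITD Ptprc KO against FLT3 ITD) minus the effect of Ptprc loss with normal Flt3 (Ptprc KO against WT), on the log2 scale. A positive interaction means that the response to Ptprc loss was more positive with the duplication, and a negative one that it was more negative. Each of the 2 effects uses 8 cultures and they share no library. The interaction was fitted for 12093 genes with enough counts, of 21936 in the deposited table.

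All groups were C57BL/6J mouse cells: CD11b-positive bone marrow cells kept in M-CSF (50 ng/ml) for 3 days and then in M-CSF with RANKL (20 ng/ml), with RNA taken between day 3 and day 5, when mature osteoclasts first appeared. WT carried neither change, Ptprc KO lacked Ptprc, FLT3 ITD carried the internal tandem duplication as a knock-in, and FLT3 ITD Ptprc KO, here called the double mutant, carried both. The labels name no tissue-restricted driver for either allele. Age and sex of the animals, the day of each culture and the zygosity of the knock-in are not given in the sources used here. Whether the 4 cultures of a genotype had different animals as their source is not stated, so a p-value here measures culture-to-culture spread only, and this spread may be technical.

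CD45, the product of Ptprc, is a receptor tyrosine phosphatase of blood cells best known for removing the inhibitory phosphate from Src-family kinases. FLT3 is a receptor tyrosine kinase of haematopoietic progenitors, and the internal tandem duplication, common in acute myeloid leukaemia, makes it signal without ligand, through STAT5 and the ERK pathway among others. Osteoclasts form when precursors of the monocyte and macrophage lineage receive M-CSF and RANKL: RANK signals through TRAF6 to NF-kB, AP-1 and NFATc1, the cells fuse, and the mature cell dissolves bone with acid from a V-type proton pump and with proteases such as cathepsin K.

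Total counts ran from 24211724 to 35773313 per library, and replicates differed by a coefficient of variation of 0.37. All 9 osteoclast markers were measured, with a mean log2 CPM (the usual library-size-scaled count, with TMM scaling between libraries) of 7.48 to 10.85 over the 16 cultures. Several libraries stood apart from their groups. FLT3 ITD replicate 4 had an osteoclast marker score of 8.72 against 10.38 to 10.58 in the other FLT3 ITD cultures, and double-mutant replicate 3 had 9.94 against 7.48 to 7.84 in the other double mutants. In FLT3 ITD replicate 2, short genes were over-represented: its log2 deviation from the mean library correlated with gene length across genes with a Spearman coefficient of -0.46, against -0.181 in FLT3 ITD replicate 4 and 0.035 to 0.181 in the other 14 libraries. FLT3 ITD replicates 1 and 3 were closer to each other than any other pair of replicates, with a chi-square of 2.74 per gene against 12.8 for the next of 24 pairs, which is still beyond sampling noise, and they were kept as 2 samples. Whether both came from 1 culture is not given, so the FLT3 ITD group may hold 3 independent samples in place of 4.

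Ptprc (ENSMUSG00000026395, GRCm38 chromosome 1, 138062861 to 138175708) was checked first in each library. The 4 WT cultures held 472, 412, 464 and 469 CPM and the 4 Ptprc KO cultures 41.5, 36.6, 30.8 and 45.8 CPM. With the duplication, the values were 416, 230, 414 and 543 CPM in FLT3 ITD and 54.1, 86.7, 63.8 and 54.6 CPM in the double mutant. Every library labelled as a knockout lay below every other library. Ptprc fell by 3.55 on the log2 scale with normal Flt3 (SE 0.25, edgeR adjusted p 7.01e-06) and fell by 2.63 with the duplication (SE 0.24, adjusted p 0.000227). The interaction of Ptprc itself was 0.93 (SE 0.32) and did not pass (adjusted p 0.255). Flt3 had 1 to 41 counts per library, too few to describe, and gene counts do not show the duplication.

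At the level of single genes, 1 of 12093 passed the interaction test (edgeR quasi-likelihood, Benjamini-Hochberg adjusted p under 0.05, 0.00827% of genes tested). It was Rbm44, and the next lowest adjusted p was 0.159. At an unadjusted p under 0.05 stood 2120 genes (17.5%), 895 with a positive interaction (7.4%) and 1225 with a negative one (10.1%). The count of genes passed changed with the library left out: it fell to 0 without most single libraries and rose without 2 of them. Without FLT3 ITD replicate 4 it was 17 (8 positive, 9 negative), and without double-mutant replicate 3 it was 56 (5 positive, 51 negative), with 7 genes shared (41.2% of the first list and 12.5% of the second). DESeq2, which models the spread per gene in another way, called 165 genes on the same counts (56 positive, 109 negative). The limma voom fit with quality weights, in which the close pair FLT3 ITD 1 and 3 received weights of 8.47 and 9.74 and FLT3 ITD 2 and 4 weights of 0.12 and 0.151, called 7296.

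The 2 effects behind the interaction were of unequal size. The median absolute log2 effect of Ptprc loss over all genes was 0.352 with the duplication and 0.103 with normal Flt3, and the effect was larger with the duplication in 84.2% of genes. With the duplication, 1 gene passed (0.00827%), Ptprc itself, and 3104 had an unadjusted p under 0.05 (25.7%), a count of passed genes that became 1798 without FLT3 ITD replicate 4 and 1315 without double-mutant replicate 3. With normal Flt3, 4 genes passed (0.0331%) and 102 had an unadjusted p under 0.05 (0.843%). Those 4 were Ptprc, Rbm44 and Glrp1, which fell (0.0248% of genes tested), and Stard13, which rose; Glrp1 was chosen for naming after its values were seen. The count was 2 without WT replicate 4 and 7 without double-mutant replicate 3, which enters through the shared spread only. The sign of the effect differed between the backgrounds in 72% of genes, with 37.5% lower after Ptprc loss with the duplication and higher with normal Flt3, and 34.5% the other way round. Among the 2120 genes at an unadjusted p under 0.05 this share was 97.7% of the negative and 96.1% of the positive ones, which selection on the difference of the effects partly fixes. In bulk RNA, fewer cells of a type and less RNA per cell cannot be told apart, for any of the genes described here.

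**Figure D1:**
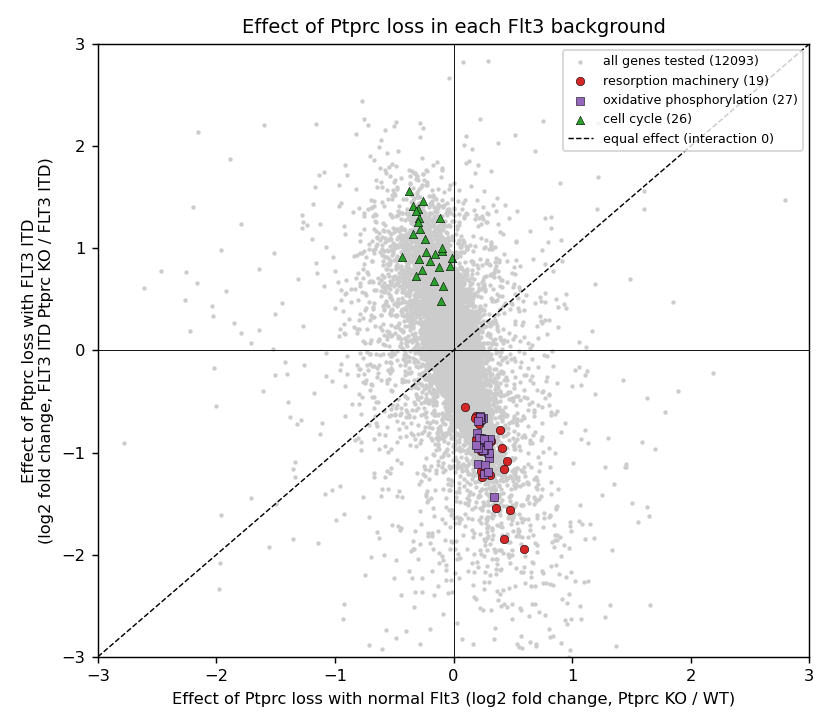
Each grey point is 1 gene, with the log2 effect of Ptprc loss with normal Flt3 on the horizontal axis and with FLT3 ITD on the vertical axis; both axes end at 3 in either direction, which leaves out 43 of 12093 genes. Members of 3 lists are coloured, the dashed line marks equal effects, and the cloud is taller than it is wide (median absolute effects of 0.352 and 0.103), with all resorption and oxidative phosphorylation genes at the lower right and all cell cycle genes at the upper left.

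Rbm44 (ENSMUSG00000070732, chromosome 1, 91145089 to 91170795), which encodes an RNA-binding protein, fell after Ptprc knockout with normal Flt3 and was detected in every double mutant. Raw counts were 14, 32, 22 and 18 in WT and 0, 1, 0 and 0 in Ptprc KO. They were 9, 12, 19 and 4 in FLT3 ITD and 33, 19, 14 and 25 in the double mutant. The 86 counts of the WT group against 1 in Ptprc KO give a ratio of 76.7 (95% exact binomial interval 13.4 to 3070, counting error only), and the 91 counts of the double mutant against 44 in FLT3 ITD give 1.83 (1.26 to 2.68). The groups did not overlap with normal Flt3 and overlapped with the duplication. Its interaction was 6.54 (SE 0.88, edgeR adjusted p 0.0309), from a fall by 5.67 with normal Flt3 (SE 0.73, adjusted p 0.00702) and a difference of 0.87 with the duplication (SE 0.47, adjusted p 0.246).

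Rbm44 lies on the same chromosome as Ptprc, and its level, at most 1.01 CPM in any library, was under the level set for naming genes, so it was chosen after its values were seen. The call held in 4 of the 16 fits that leave out 1 library (without Ptprc KO 2, FLT3 ITD 3, FLT3 ITD 4 or double mutant 3). It was lost in the 12 others, with adjusted p from 0.0553 to 0.152 and an interaction between 6.17 and 8.23 over all 16. It was also lost when the close pair FLT3 ITD 1 and 3 was summed (adjusted p 0.0664). Chromosome 1 held 7 of the 100 genes with the lowest interaction p and 5.97% of the genes tested. A second gene of this chromosome, Glrp1 (88499871 to 88510066), had an interaction of 5.05 (SE 1.31, adjusted p 0.245), with a fall by 7.20 on the log2 scale with normal Flt3 (adjusted p 0.0222). WT averaged 1.95 CPM and Ptprc KO 0.00893 CPM, and with the duplication FLT3 ITD averaged 2.56 CPM and the double mutant 0.573 CPM.

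Among genes with a mean of at least 5 CPM in 1 group, Stard13 and Trip6 had the lowest p for a negative interaction, and both stood out through the Ptprc KO cultures with normal Flt3. Stard13 (chromosome 5, 151037510 to 151233836) encodes a GTPase-activating protein. It measured 0.346, 0.424, 0.275 and 0.284 CPM in WT and 3.28, 3.15, 3.44 and 12.6 CPM in Ptprc KO. FLT3 ITD cultures had 1.29, 0.52, 1.25 and 0.708 CPM and double mutants 1.04, 0.692, 1.14 and 0.54 CPM. All Ptprc KO cultures lay above all WT cultures, with replicate 4 highest, while the groups with the duplication overlapped. Stard13 met the 5 CPM level only through the Ptprc KO mean (5.62 CPM), and there through replicate 4, as the other cultures lay under 5 CPM. Stard13 rose by 4.06 with normal Flt3 (SE 0.53, edgeR adjusted p 0.00702) and differed by -0.15 with the duplication (SE 0.48, adjusted p 0.856). The interaction of -4.21 (SE 0.70, adjusted p 0.159) did not pass. It did pass without FLT3 ITD replicate 4 (-4.32, adjusted p 0.0432), without double-mutant replicate 3 (-4.38, 0.0463) and in DESeq2 (-4.26, 7.69e-05). Without Ptprc KO replicate 4, the Stard13 interaction was -3.44 (adjusted p 0.0641). A predicted gene overlaps Stard13 on the same strand, so reads there may be shared.

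Trip6 (chromosome 5, 137309654 to 137314404), an adaptor of the zyxin family found at focal adhesions, was on average also highest in Ptprc KO, but lowest in the double mutant. WT cultures had 5.74, 5.36, 8.0 and 8.1 CPM and Ptprc KO cultures 20.1, 28.2, 16.8 and 16.7 CPM, without overlap. FLT3 ITD cultures had 9.71, 9.66, 8.69 and 5.04 CPM and double mutants 3.86, 2.32, 6.97 and 4.59 CPM, with overlap. The difference was 1.59 with normal Flt3 (SE 0.31, adjusted p 0.316) and -0.90 with the duplication (SE 0.31, adjusted p 0.128). The interaction was -2.49 (SE 0.44, adjusted p 0.159), which passed without FLT3 ITD replicate 4 (-2.66, adjusted p 0.0373), without double-mutant replicate 3 (-2.79, 0.0463) and in DESeq2 (-2.53, 0.000104).

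**Figure D2:**
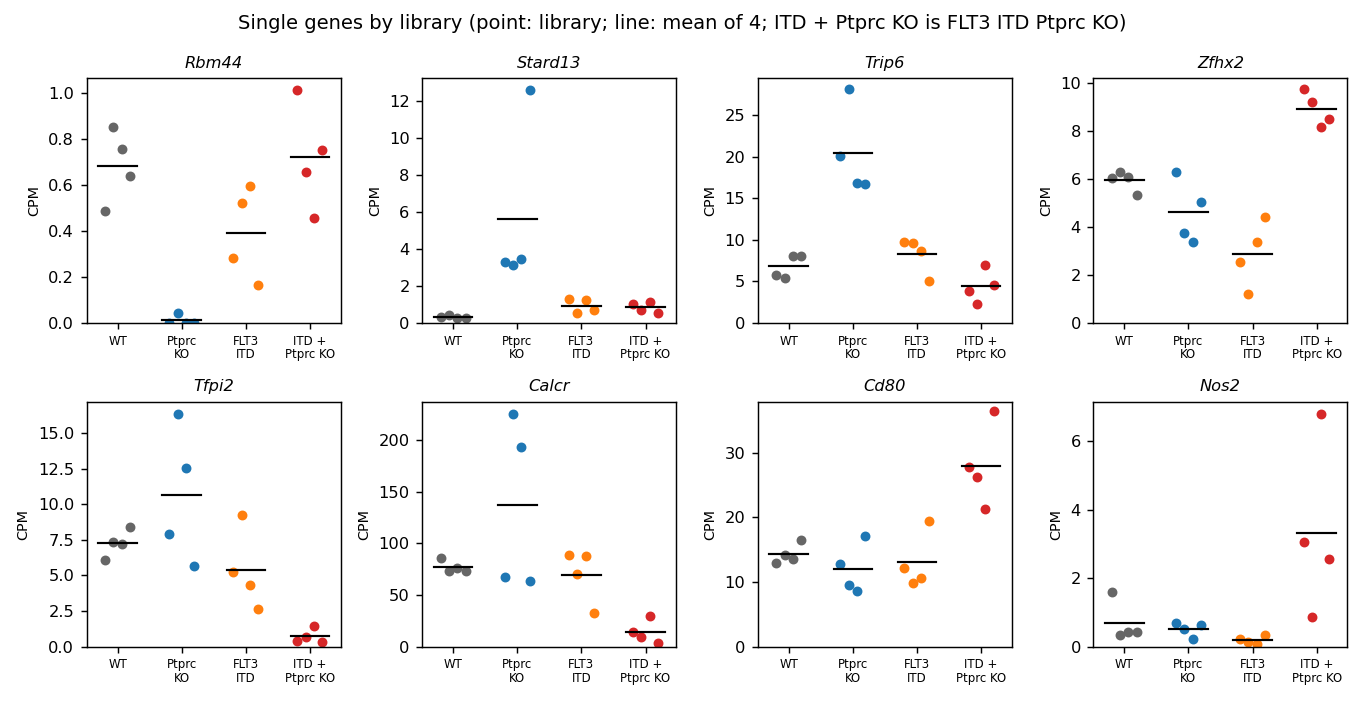
CPM (vertical axes, from 0) of 8 genes in each library, with 4 points per genotype and a line at their mean. Rbm44 is near 0 in Ptprc KO, Stard13 and Trip6 are highest in Ptprc KO, Tfpi2 and Calcr are lowest in the double mutant, and Zfhx2, Cd80 and Nos2 are highest in the double mutant.

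Other genes were read through lists of pathway members and cell type markers. Over all lists, 350 genes were tested, and edgeR passed 0 of them (background 0.00827%), with a lowest adjusted p of 0.245. At an unadjusted p under 0.05 stood 74 of the 350, where 17.5% of all genes did. That count is therefore not read as a result about list genes. DESeq2 called 8 of the 350 (2.29%, against 1.36% of all genes) and voom with quality weights 235 (67.1%, against 60.3% of all genes), and the voom counts of single lists are to be read against this share. The lists are therefore described by their counts and medians beside those of all genes, where 51.2% of interactions were positive, 48.8% negative, and the median was 0.02. Lists and members were chosen with earlier results of these data known, and genes of the same list are not independent replicates. Counts within a list thus describe its members and are not a test.

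The resorption machinery, the proton pump, chloride and bicarbonate transport and proteases with which osteoclasts dissolve bone, had a negative interaction in 19 of 19 genes. The median was -1.37, from -2.54 to -0.65. In all 19, the double mutant was below FLT3 ITD (median -0.99, against 48% of all genes below) and Ptprc KO was above WT (median 0.31, against 54.9% of all genes above). At an unadjusted p under 0.05 stood 12 of 19 (63.2%), all negative, where 10.1% of all genes did. The groups overlapped for each of the 19 in both backgrounds, and edgeR and DESeq2 passed 0 of 19 and voom with quality weights 19.

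Ctsk (chromosome 3, 95499256 to 95509362) encodes cathepsin K, the main collagen-cleaving protease of osteoclasts. It measured 7302, 9366, 7856 and 8103 CPM in WT and 5960, 16700, 14900 and 6177 CPM in Ptprc KO. FLT3 ITD cultures held 12260, 18510, 11780 and 4203 CPM, and double mutants 1904, 1399, 8508 and 1169 CPM. Ptprc KO split into 2 high and 2 lower cultures, and FLT3 ITD replicate 4 and double-mutant replicate 3 stood against the other 3 of their groups. The interaction was -2.27 (SE 0.86, adjusted p 0.263), from 0.42 with normal Flt3 and -1.85 with the duplication. Without double-mutant replicate 3 it was -3.39 and passed (adjusted p 0.0463).

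Car2, the carbonic anhydrase that supplies protons to the pump, had the most negative interaction of the list (-2.54, SE 0.92, adjusted p 0.262). Its levels were 289, 424, 289.7 and 521 CPM in WT, 295, 872, 885 and 243 CPM in Ptprc KO, 627, 745, 618 and 180.3 CPM in FLT3 ITD, and 62.5, 67.7, 379 and 54.6 CPM in the double mutant. Here too 3 of 4 double mutants lay below the other 13 libraries, and replicate 3 lay within them. Snx10, a sorting nexin needed for the ruffled border, stood at -2.04 (SE 0.63, adjusted p 0.255), and Acp5, the tartrate-resistant acid phosphatase used to stain osteoclasts, at -1.90 (SE 0.79, adjusted p 0.269). Subunits of the V-type proton pump were at -1.59 (Atp6v1e1), -1.41 (Atp6v1h), -1.53 (Atp6v0d2) and -0.83 (Tcirg1). The chloride transporter Clcn7 had -1.22 and its partner Ostm1 -1.20 (SE 0.34, adjusted p 0.252). Mmp9, a gelatinase, had -1.18 (SE 0.79, adjusted p 0.404).

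The list's score, the mean log2 CPM of its 19 genes, was 9.84, 10.06, 9.77 and 9.96 in WT and 9.64, 10.66, 10.63 and 9.60 in Ptprc KO. It was 10.43, 10.60, 10.39 and 9.15 in FLT3 ITD and 8.48, 8.78, 10.05 and 8.52 in the double mutant. WT cultures were close together, whereas each of the other genotypes held cultures far from the rest. Leaving out 1 library moved the list's median interaction between -1.86 and -1.11 with 19 of 19 negative each time. Without double-mutant replicate 3 (-1.86) 4 of the 19 passed, where 56 of all 12190 genes did.

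Promoter sequences are shown for 2 genes of this list that hold motifs of factors known from osteoclasts. RefSeq (GRCm38.p6) gave promoters for 13 of the 19 genes, and the window is the 250 bases before an annotated start, 5′ to 3′ on the gene's strand. Capitals mark a match on either strand to GAGGAA (core of the PU.1 site), CACGTG (E-box bound by MITF and TFE factors), TGANTCA (AP-1 site) or TGGAAA (core of the NFAT site); no matches overlap in these windows.
Ctsk, chr3:95498960-95499209, plus strand: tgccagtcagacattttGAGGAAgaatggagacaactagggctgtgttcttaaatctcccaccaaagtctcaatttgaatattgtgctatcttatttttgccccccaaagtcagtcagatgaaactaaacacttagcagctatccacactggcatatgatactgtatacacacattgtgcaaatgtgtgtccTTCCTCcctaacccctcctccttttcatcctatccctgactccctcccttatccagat
Clcn7, chr17:25133141-25133390, plus strand: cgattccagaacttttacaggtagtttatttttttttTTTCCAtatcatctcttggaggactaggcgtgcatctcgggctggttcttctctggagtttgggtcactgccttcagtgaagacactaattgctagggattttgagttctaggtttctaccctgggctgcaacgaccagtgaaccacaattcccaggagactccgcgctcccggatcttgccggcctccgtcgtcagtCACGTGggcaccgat
The Ctsk window holds 2 matches to GAGGAA, and the Clcn7 window 1 each to CACGTG and TGGAAA. Of all 32851 promoter windows, 23.3% hold GAGGAA, 6.02% CACGTG, 6.75% TGANTCA and 18.6% TGGAAA. Of the 23 windows of resorption genes the shares were 17.4%, 8.7%, 4.35% and 13%, none of them far above the shares of all windows, and a match describes letters only.

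**Figure D3:**
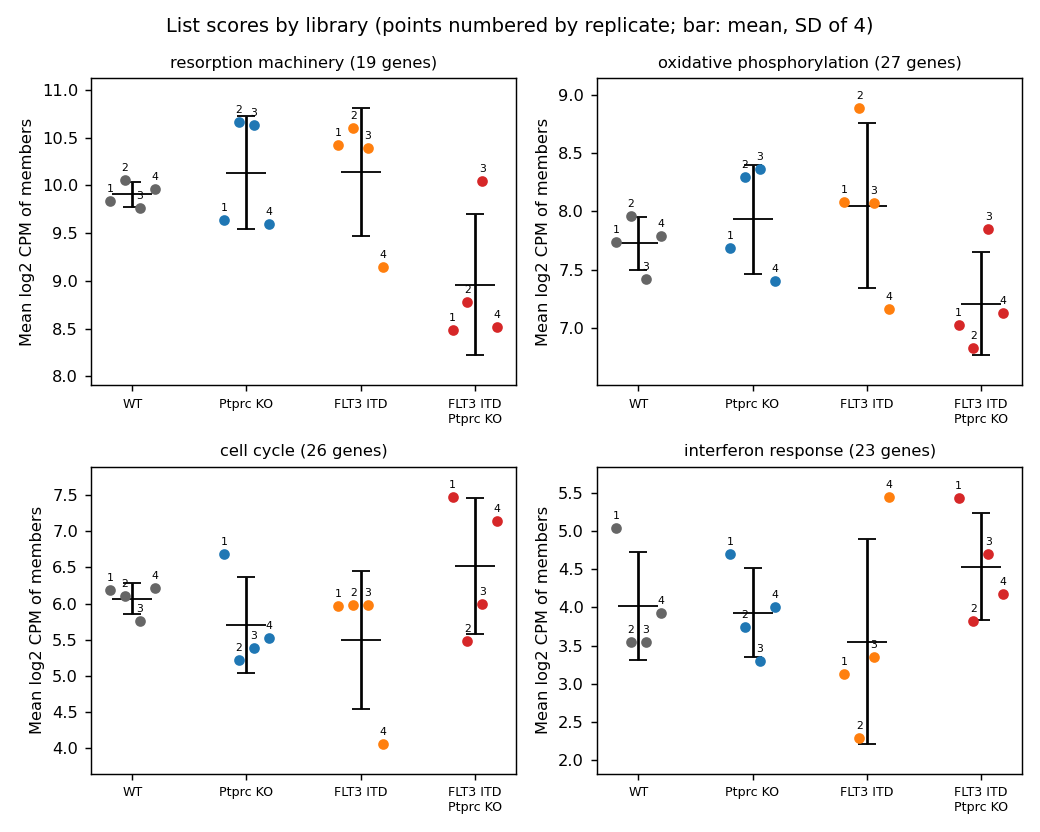
Mean log2 CPM (vertical axes) of the members of 4 lists in each library, with points numbered by replicate within the 4 genotypes, and the mean with its SD over 4 cultures. FLT3 ITD replicate 4 is the lowest or highest FLT3 ITD culture in each panel. In the oxidative phosphorylation panel it is lowest (7.16) and replicate 2 highest (8.89), with replicates 1 and 3 between (8.08 and 8.07). Double-mutant replicate 3 lies above the other double mutants in the resorption and oxidative phosphorylation panels.

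Genes of osteoclast fusion and adhesion had a median interaction of -1.07, with 12 of 16 negative. At an unadjusted p under 0.05 were 5 negative and 1 positive (all genes: 10.1% and 7.4%), while edgeR passed 0 of 16, DESeq2 2 and voom with quality weights 13. Calcr, the calcitonin receptor, had -3.14 (SE 0.79, adjusted p 0.245). It measured 85.3, 72.8, 76.4 and 72.8 CPM in WT, 67.6, 226, 193 and 63.5 CPM in Ptprc KO, 89.0, 70.5, 87.4 and 32.2 CPM in FLT3 ITD, and 14.5, 9.61, 29.4 and 3.33 CPM in the double mutant. All double mutants lay below all FLT3 ITD cultures (3.52% of all genes did so), although double-mutant replicate 3 and FLT3 ITD replicate 4 nearly met. Calcr passed in DESeq2 (-3.17, adjusted p 0.0142) and without double-mutant replicate 3 (-3.77, 0.0463).

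Itgb3, the beta chain of the integrin that anchors osteoclasts to bone, had -2.35 (SE 0.67, adjusted p 0.252), and its partner chain Itgav -1.17 (SE 0.47, adjusted p 0.265). Itgb3 averaged 246 ± 68.5 CPM in WT and 401 ± 168 CPM in Ptprc KO (SD, n = 4). With the duplication the averages were 409 ± 178 CPM without and 131 ± 82.7 CPM with Ptprc loss (SD, n = 4). Oscar, a costimulatory receptor of osteoclasts, stood at -2.14 and the unconventional myosin Myo1d at -2.49. The fusion proteins Dcstamp and Ocstamp had -1.48 and -1.44, and Siglec15, a sialic acid receptor of osteoclasts, -1.93; none of these 3 reached an unadjusted p of 0.05. Sirpa, an inhibitory receptor of myeloid cells, was the positive one at 0.63 (SE 0.26, adjusted p 0.269).

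RANK signalling and osteoclast transcription factors had a median of -0.21, with 8 of 19 positive and 11 negative, and 1 positive and 2 negative at an unadjusted p under 0.05 (7.4% and 10.1% of all genes). Leaving out 1 library moved the median between -0.29 and -0.01. On log2(TPM + 1), where all genes had a median of 0.31, it was 0.11, which is -0.2 relative to all genes. The 2 negative ones were Traf6, the adaptor of RANK (-1.01, SE 0.33, adjusted p 0.255), and Spi1, which encodes PU.1 (-0.67, SE 0.22, adjusted p 0.255). Spi1 measured 706, 1004, 709.9 and 677 CPM in FLT3 ITD and 485, 574, 631 and 490.2 CPM in the double mutant, without overlap. The AP-1 component Jun was the positive one (0.75, SE 0.30, adjusted p 0.265). Values near 0 came with wide errors: the RANK gene Tnfrsf11a had -0.26 (SE 0.31), the M-CSF receptor Csf1r -0.13 (SE 0.36), and Nfatc1, the master regulator, -0.43 (SE 0.72). For these 3, alternatives gave the opposite sign, for Tnfrsf11a and Csf1r partly on TPM scales where the median of all genes was itself positive. Nfatc1 spread from 124 to 697 CPM within the double mutant and from 127 to 587 CPM within FLT3 ITD.

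Repressors of osteoclast differentiation had a median interaction of 0.26 with 10 of 14 positive and none at an unadjusted p under 0.05. The median was 1.17 without FLT3 ITD replicate 4, 0.08 without FLT3 ITD replicate 2 and 0.08 without double-mutant replicate 2, where 7 of 14 were positive. DESeq2 called 0 of them and voom with quality weights 10. Irf8 stood at 0.97 (SE 1.13) and Bcl6 at 0.85 (SE 0.71), each a transcription factor that RANKL normally lowers. Irf8 was 14, 8.23, 14.9 and 87.4 CPM in FLT3 ITD and 51.2, 107.6, 20.4 and 28.8 CPM in the double mutant, so that FLT3 ITD replicate 4 exceeded 3 of the 4 double mutants.

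Lysosomal hydrolases were divided. The median was -0.14 with 8 positive and 10 negative of 18. Leaving out 1 library moved the median between -0.41 and -0.03. On log2(TPM + 1), where all genes had a median of 0.31, it was 0.20, which is -0.11 relative to all genes. At an unadjusted p under 0.05 were 4 negative ones (10.1% of all genes). Among these were Hexa, a lysosomal hydrolase of ganglioside breakdown (-1.12, SE 0.40, adjusted p 0.258), the beta-galactosidase Glb1 (-1.06, SE 0.36, adjusted p 0.255) and the cholesterol carrier Npc2 (-0.76, SE 0.28, adjusted p 0.262). Hexa measured 1104, 1406, 1091 and 957 CPM in FLT3 ITD and 489, 884, 844 and 352 CPM in the double mutant, without overlap. In WT it was 771 to 889 CPM, and in Ptprc KO 643 to 1345 CPM.

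Oxidative phosphorylation, the respiratory chain and ATP synthase of mitochondria, gave the most uniform list. All 27 genes had a negative interaction (median -1.17, range -1.78 to -0.87), and 22 of them (81.5%) had an unadjusted p under 0.05, where 10.1% of all genes had a negative interaction at that level. The effect of Ptprc loss was -1.43 to -0.64 with the duplication and 0.19 to 0.35 with normal Flt3. edgeR and DESeq2 passed 0 of 27, voom with quality weights 27. The most negative was Ndufa4 (-1.78, SE 0.64, adjusted p 0.26), and complex I, II, III, IV and ATP synthase genes were all represented, such as Ndufa1 (-1.35), Sdhb (-1.30), Uqcrfs1 (-1.49), Cox4i1 (-1.23) and Atp5b (-0.87).

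Cox4i1 illustrates the pattern by library. It was 536, 622, 459 and 576 CPM in WT, 516, 804, 829 and 451 CPM in Ptprc KO, 717, 1371, 693 and 473 CPM in FLT3 ITD, and 328, 349, 627 and 346 CPM in the double mutant. FLT3 ITD replicate 2, the library rich in short genes, was the highest by far. Genes of this list were short, with a median length of 2154 bases against 4513 for all genes tested. Across genes, the interaction correlated with length with a Spearman coefficient of 0.221 (0.123 without FLT3 ITD replicate 2), where genes are not independent replicates. With genes split by length into 5 groups of equal size, the shortest group had a median interaction of -0.28 (-0.13 without that library) and the longest group 0.21 (0.10).

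The list median was -0.81 without FLT3 ITD replicate 2, -0.91 after the length trend of each library was removed and -0.60 with 1 surrogate variable, with 27 of 27 negative each time. On log2(TPM + 1), where all genes had a median of 0.31, it was -0.77, which is -1.08 relative to all genes. The resorption list, with a median length of 5291 bases, stood at -1.25 without FLT3 ITD replicate 2, -1.43 with the length trend removed, -0.76 with 1 surrogate variable and -1.03 on log2(TPM + 1), which is -1.34 relative to all genes. When FLT3 ITD replicates 1 and 3 were summed and replicate 2 was left out, the medians were -0.65 for oxidative phosphorylation and -0.99 for resorption. How much of the oxidative phosphorylation result the length trend carries beyond these values was not tested.

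Cell cycle genes had the opposite sign. All 26 had a positive interaction (median 1.19, range 0.59 to 1.93), with an effect of Ptprc loss of 0.48 to 1.56 with the duplication and -0.44 to -0.02 with normal Flt3. Over all genes, 52% were positive with the duplication and 45.1% negative with normal Flt3. At an unadjusted p under 0.05 were 5 (19.2%), where 7.4% of all genes had a positive interaction at that level. edgeR and DESeq2 passed 0 of 26, and voom with quality weights 26. The 5 were the mitotic kinesin Cenpe (1.93, SE 0.86, adjusted p 0.273), the G1 cyclins Ccne1 (1.35, SE 0.62) and Ccne2 (1.09, SE 0.50), the replication helicase subunit Mcm3 (1.07, SE 0.46) and the transcription factor E2f1 (0.85, SE 0.32, adjusted p 0.263).

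Mki67, the proliferation marker, measured 343, 307, 196 and 323 CPM in WT and 477, 157, 170.1 and 144 CPM in Ptprc KO. FLT3 ITD cultures held 260.0, 108, 289.5 and 22.4 CPM and double mutants 811, 155, 255 and 550.3 CPM. Double-mutant replicates 1 and 4 were the highest of all 16 and FLT3 ITD replicate 4 the lowest. Its interaction was 1.68 (SE 0.93, adjusted p 0.335). Mcm3 and Mcm4 were the 2 members whose double mutants all lay above all FLT3 ITD cultures (4.95% of all genes did so), Mcm3 at 181, 121, 85.5 and 182 CPM against 79.5, 66.5, 79.4 and 63.6 CPM. Leaving out 1 library moved the list median between 0.87 (without double-mutant replicate 1) and 1.70 (without Ptprc KO replicate 1), with 26 of 26 positive each time. Removing the length trend gave 1.28.

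**Figure D4:**
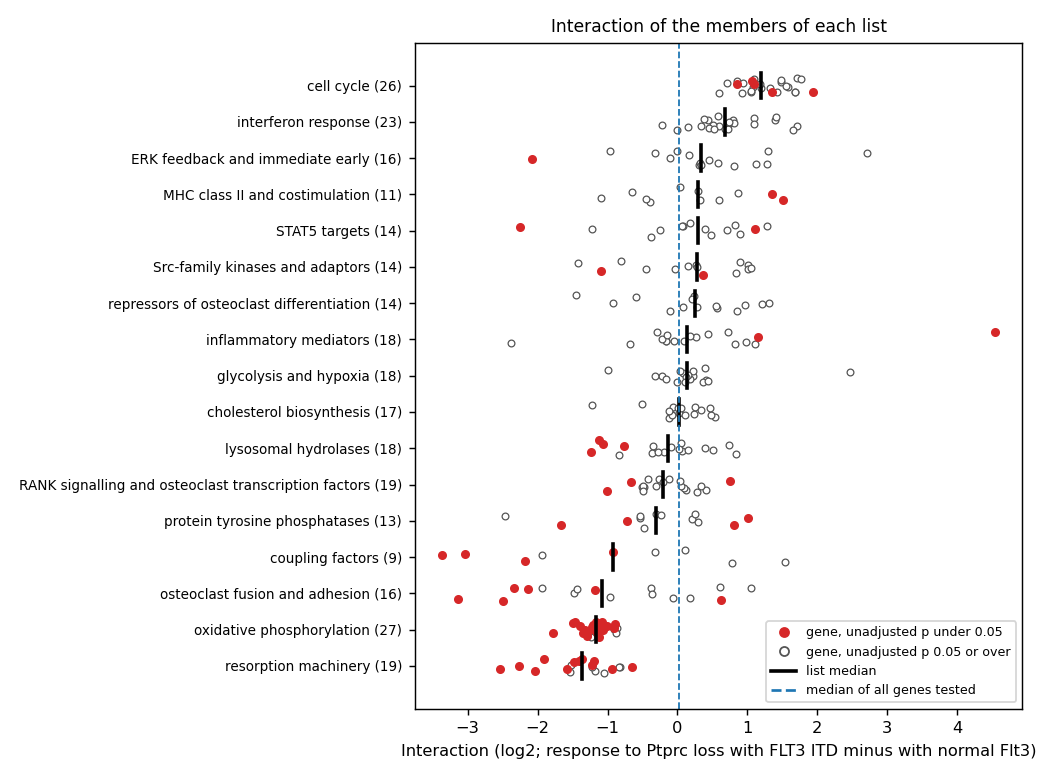
Interaction (horizontal axis, log2) of each tested member of the 17 pathway lists, ordered by list median, with the number tested in brackets; filled points have an unadjusted p under 0.05, black bars are list medians and the dashed line is the median of all genes (0.02). Resorption and oxidative phosphorylation members lie on the negative side without exception and cell cycle members on the positive side, while most other lists straddle 0.

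Interferon-induced genes, the antiviral programme downstream of type I interferon, had 21 of 23 positive interactions with a median of 0.68, and 0 reached an unadjusted p under 0.05. edgeR and DESeq2 passed 0, voom with quality weights 21. This list depended on single libraries more than those above. Its median was 0.21 without WT replicate 1, 0.18 without double-mutant replicate 1 and 1.86 without FLT3 ITD replicate 4, and -0.04 with 14 of 23 negative when FLT3 ITD 1 and 3 were summed and 2 was left out. Oas3, an RNA-sensing synthetase, was 23.8, 8.23, 28.5 and 100.3 CPM in FLT3 ITD and 174, 29.0, 79.5 and 82.1 CPM in the double mutant (interaction 1.39, SE 1.03). Ifit2 had 1.71 (SE 0.99) and Ifi44 1.66 (SE 1.06).

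Inflammatory mediators had a median of 0.14 (10 positive, 8 negative of 18). At an unadjusted p under 0.05 were 2, both positive (11.1%, where 7.4% of all genes had a positive interaction at that level). Nos2, the inducible nitric oxide synthase, had 7, 3, 2 and 8 raw counts in FLT3 ITD and 100, 25, 209 and 85 in the double mutant, without overlap. With normal Flt3 the counts were 46, 13, 12 and 12 in WT and 23, 12, 6 and 18 in Ptprc KO. The interaction was 4.54 (SE 0.98, edgeR adjusted p 0.245), and it passed in DESeq2 (4.54, adjusted p 0.00329). Tlr4, the endotoxin receptor, had 1.16 (SE 0.36, adjusted p 0.255), at 44.9, 17.5, 48.7 and 38.3 CPM in FLT3 ITD and 77.6, 77, 50.8 and 50.1 CPM in the double mutant, again without overlap.

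MHC class II and costimulation had a median of 0.29 (7 positive, 4 negative of 11). Cd80, a costimulatory ligand for T cells, was 12.1, 9.83, 10.7 and 19.4 CPM in FLT3 ITD and 27.8, 26.3, 21.3 and 36.4 CPM in the double mutant. The 2 groups did not overlap, while WT (13 to 16.4 CPM) and Ptprc KO (8.62 to 17.0 CPM) did. Its interaction of 1.35 (SE 0.35, adjusted p 0.245) passed in DESeq2 (1.32, adjusted p 0.0364). Ciita, the transactivator of MHC class II, had 1.51 (SE 0.60, adjusted p 0.265).

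The scores of inflammatory and immune lists were uneven within every genotype. The inflammatory score was highest in WT replicate 3 (3.34, others 0.97 to 1.77), Ptprc KO replicate 4 (4.13, others 1.08 to 1.44), FLT3 ITD replicate 4 (4.33, others 1.73 to 1.91) and double-mutant replicate 2 (5.06, others 2.0 to 3.26). The neutrophil marker score of those same libraries was 3.20, 4.28, 3.78 and 1.63, the highest of its group in each case. Leaving out 1 library moved the inflammatory list's median between -0.76 and 1.66 and that of MHC class II between -1.08 and 1.52. Neither list kept its sign over these fits, and the part of other cell types in it was not tested.

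Src-family kinases and their adaptors had a median of 0.28 (9 positive, 5 negative of 14), with Csk, the kinase that opposes CD45 at the inhibitory tyrosine, at 0.36 (SE 0.16, adjusted p 0.272). Csk measured 124, 129, 127 and 147 CPM in FLT3 ITD and 194, 153, 149.5 and 176 CPM in the double mutant, without overlap. Src itself, which osteoclasts need for the ruffled border, had -0.81 (SE 0.54), and Fyn, another kinase of the family, had 1.01 (SE 0.53). Cblb, a ubiquitin ligase that limits kinase signalling, had -1.10 (SE 0.44, adjusted p 0.265).

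Protein tyrosine phosphatases other than CD45 had a median of -0.31 (5 positive, 8 negative of 13), with 2 at an unadjusted p under 0.05 in each direction (7.4% of all genes were positive and 10.1% negative at that level). Over all alternatives, TPM scales included, the median ran from -0.86 to 0.01. Single values in the main fit ran from -2.46 to 1.01. Ptpro, a receptor-type phosphatase, was 78.5, 63.8, 54.7 and 72.5 CPM in WT, 65.9, 50.9, 46.2 and 42.9 CPM in Ptprc KO, 56.4, 41.5, 56.4 and 51.5 CPM in FLT3 ITD, and 84.3, 65.9, 87.3 and 80.2 CPM in the double mutant. Its direction thus differed between backgrounds, with overlap only for normal Flt3, and the interaction was 1.01 (SE 0.23, adjusted p 0.245; DESeq2 0.98, adjusted p 0.0161). Ptprs, another receptor-type phosphatase, had 0.81 (SE 0.30, adjusted p 0.262), with 101 to 107.5 CPM in 3 FLT3 ITD cultures, 49.6 CPM in replicate 2, and 145 to 231 CPM in the double mutant. The negative pair was Ptpn18 (-1.66, SE 0.72) and Ptpn1, which encodes PTP1B (-0.72, SE 0.31, adjusted p 0.271).

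STAT5 targets had a median of 0.29 (10 positive, 4 negative of 14). It was 1.21 without FLT3 ITD replicate 4, -0.08 without WT replicate 3 and -0.15 without double-mutant replicate 2, so its sign rested on single libraries. Socs2, a feedback inhibitor of cytokine receptors, had -2.25 (SE 0.60, adjusted p 0.245; DESeq2 -2.29, adjusted p 0.0327). It measured 1.91, 3.99, 1.94 and 1.5 CPM in FLT3 ITD and 0.398, 0.657, 0.944 and 0.90 CPM in the double mutant, without overlap, and 2.17 to 3.80 CPM in WT. The cyclin gene Ccnd3 had 1.1 (SE 0.33, adjusted p 0.254), and Ccnd1 1.29 (SE 0.88).

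ERK feedback and immediate early genes had a median of 0.33 (11 positive, 5 negative of 16), which was 0.63 without FLT3 ITD replicate 4 and -0.06 without double-mutant replicate 2. Spry1, an inhibitor of receptor tyrosine kinase signalling, stood at -2.08 (SE 0.75, adjusted p 0.257), with 13.7, 22.5, 13.7 and 17.0 CPM in FLT3 ITD and 2.79, 3.67, 11.6 and 2.37 CPM in the double mutant. Egr1 had 2.71 (SE 1.41, adjusted p 0.317), resting on 114 CPM in double-mutant replicate 2 against 2.58 to 28.4 CPM in the other double mutants.

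Coupling factors, signals from osteoclasts to bone-forming cells, had a median of -0.92 (3 positive, 6 negative of 9). Over all alternatives, TPM scales included, the median ran from -1.48 to 0. At an unadjusted p under 0.05 were 4 negative ones (10.1% of all genes). Sphk1, which makes sphingosine 1-phosphate, measured 12.8, 12, 7.01 and 12.7 CPM in WT, 12.1, 37.8, 40.9 and 4.39 CPM in Ptprc KO, 35.3, 58.4, 31.5 and 2.83 CPM in FLT3 ITD, and 2.57, 2.94, 19.7 and 1.35 CPM in the double mutant. It followed the osteoclast markers across cultures, being low in FLT3 ITD replicate 4 and high in double-mutant replicate 3. Its interaction was -3.36 (SE 1.29, adjusted p 0.264). The others were Cthrc1 (-3.03, SE 0.86, adjusted p 0.252), which passed in DESeq2 (-3.09, adjusted p 0.0399) but had at most 1.75 CPM, the ephrin Efnb2 (-2.18, SE 0.96) and the growth factor Pdgfb (-0.92, SE 0.38).

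Glycolysis and cholesterol biosynthesis stayed near the median of all genes, at 0.13 (13 positive, 5 negative of 18) and 0.02 (10 positive, 7 negative of 17). In both lists 0 genes passed with edgeR or DESeq2, 0 had an unadjusted p under 0.05, and voom with quality weights called 5 and 7. For cholesterol genes the 2 effects had the same sign, with medians of -0.24 with the duplication and -0.25 with normal Flt3. For these lists, as for the others in the main fit (edgeR passed 0 of 350 list genes), the effect of Ptprc loss was not shown to depend on the duplication. That does not show that the effect is equal.

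The 10 genes named for the lowest p among positive interactions had values from 0.79 to 2.29, and edgeR passed 0 of 10 (adjusted p 0.205 to 0.245), while DESeq2 called 10 of 10 (adjusted p 0.00139 to 0.0161). For all 10, the double mutants lay above all FLT3 ITD cultures, as for 4.95% of all genes, and Ptprc KO was on average below WT. Since these genes were chosen by interaction p, nothing is read from that count. Nor is anything read from the DESeq2 calls on the same libraries (1.36% of all genes called). Zfhx2, a zinc finger homeobox gene, was 6.05, 6.31, 6.08 and 5.33 CPM in WT, 6.29, 3.77, 3.36 and 5.04 CPM in Ptprc KO, 2.54, 1.21, 3.38 and 4.41 CPM in FLT3 ITD, and 9.77, 9.23, 8.17 and 8.49 CPM in the double mutant. All double mutants thus exceeded all 12 other cultures (interaction 1.99, SE 0.43, adjusted p 0.245). An antisense gene overlaps Zfhx2, and reads of the 2 cannot be told apart where counting ignores strand, which the sources used here do not settle. Bmt2 (chromosome 6, 13625673 to 13677966), a regulator of the nutrient-sensing kinase mTORC1, had the lowest p, with an interaction of 0.99 (SE 0.19, adjusted p 0.205).

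Bmt2 stood at 68.1, 62.8, 55.8 and 62.9 CPM in WT and 54.1, 45.9, 48.3 and 48.9 CPM in Ptprc KO, so all knockouts were lower. It stood at 48.1, 37.3, 47.9 and 60.7 CPM in FLT3 ITD and 73.8, 85.5, 73.1 and 71.8 CPM in the double mutant, so all were higher. L1cam, a neural adhesion molecule, had the largest interaction of the 10 at 2.29 (SE 0.54), with 8.84, 3.12, 11.6 and 9.95 CPM in FLT3 ITD and 38.6, 25.2, 16.9 and 36.5 CPM in the double mutant. It overlaps Arhgap4 on the same strand and Avpr2 on the other. Ulbp1, a stress ligand for the receptor NKG2D, had 1.78 (SE 0.40). The others were Ift80 (2.04), a component of cilium transport, Cdkl2 (1.27), a kinase, Rubcn (1.18), an inhibitor of autophagy, Spice1 (1.18), a centriole protein, Ptpro (1.01, above) and the chromatin-linked Emsy (0.79). Cdkl2 and Rubcn overlap genes on the other strand.

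The 10 genes named for negative interactions ranged from -4.77 to -1.25, and edgeR passed 0 of 10 (adjusted p 0.159 to 0.245), while DESeq2 called 10 of 10 (adjusted p 7.69e-05 to 0.0145). For 7 of them the double mutants lay below all FLT3 ITD cultures, as for 3.52% of all genes, and for 2, Stard13 and Trip6, Ptprc KO lay above WT, where 0.786% of all genes did so. These 10 genes too were chosen by interaction p, so nothing is read from these counts. The same holds for the DESeq2 calls, which rest on the same libraries (1.36% of all genes called). Tfpi2, a protease inhibitor of the extracellular matrix, was 5.23, 9.23, 4.32 and 2.62 CPM in FLT3 ITD and 0.398, 0.657, 1.47 and 0.33 CPM in the double mutant, with 6.05 to 8.42 CPM in WT and 5.68 to 16.4 CPM in Ptprc KO. Gng11 (chromosome 6, 4003904 to 4008445), a G-protein gamma subunit, was 6.24, 21.7, 5.57 and 7.54 CPM in FLT3 ITD and 1.16, 1.00, 2.18 and 0.66 CPM in the double mutant. The interactions were -3.46 (SE 0.67, adjusted p 0.205) for Tfpi2 and -3.21 (SE 0.63, adjusted p 0.21) for Gng11. Calcr lies in the same region, at 3685680 to 3764714, and Tfpi2 at 3962595 to 3988919.

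Enpp2, which encodes autotaxin, the enzyme that makes lysophosphatidic acid, was 5.95, 11.3, 8.22 and 0.583 CPM in FLT3 ITD and 0.306, 0.38, 0.619 and 0.30 CPM in the double mutant. WT and Ptprc KO held 0.275 to 2.53 CPM, so its higher level was seen in 3 FLT3 ITD cultures, and the groups overlapped through replicate 4 (interaction -4.77, SE 1.08, adjusted p 0.245). Wdfy1, an endosomal adaptor of Toll-like receptor signalling, was 190.1, 211, 179.5 and 121 CPM in FLT3 ITD against 46.0, 56.8, 44.7 and 97.0 CPM in the double mutant and 36.7 to 65.5 CPM with normal Flt3. Loss of Ptprc thus went with a level nearer to that of WT (interaction -1.77, SE 0.38, adjusted p 0.245). Rcan1, a calcineurin inhibitor that is itself a target of NFAT, had -1.89 (SE 0.43), with 132, 253, 117 and 119.9 CPM in FLT3 ITD and 47.4, 74.9, 53.3 and 76.0 CPM in the double mutant. Rnd1, a small GTP-binding protein, had -2.11 (SE 0.43), Sgms2, a sphingomyelin synthase, -2.28 (SE 0.50), and Manbal -1.25 (SE 0.29). Wdfy1 and Rcan1 overlap genes on the other strand.

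Single libraries decided calls among these genes. Without FLT3 ITD replicate 4, Bmt2 (1.12, adjusted p 0.0362), Zfhx2 (2.27, 0.0475), Tfpi2 (-3.68, 0.0475), Rnd1 (-2.30, 0.0475) and Enpp2 (-5.15, 0.0373) passed. Without double-mutant replicate 3, Bmt2 (1.01, 0.0472), Cdkl2 (1.39, 0.0463), Ulbp1 (1.93, 0.0472), Tfpi2 (-4.08, 0.0463), Gng11 (-3.62, 0.0463) and Rnd1 (-2.28, 0.0463) passed. Of the 352 list genes tested in that fit, 8 passed, Car2 (-3.73, 0.0463) among them, where 56 of all 12190 genes did. These fits test 12197 and 12190 genes and have 1 culture fewer in the group concerned.

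**Figure D5:**
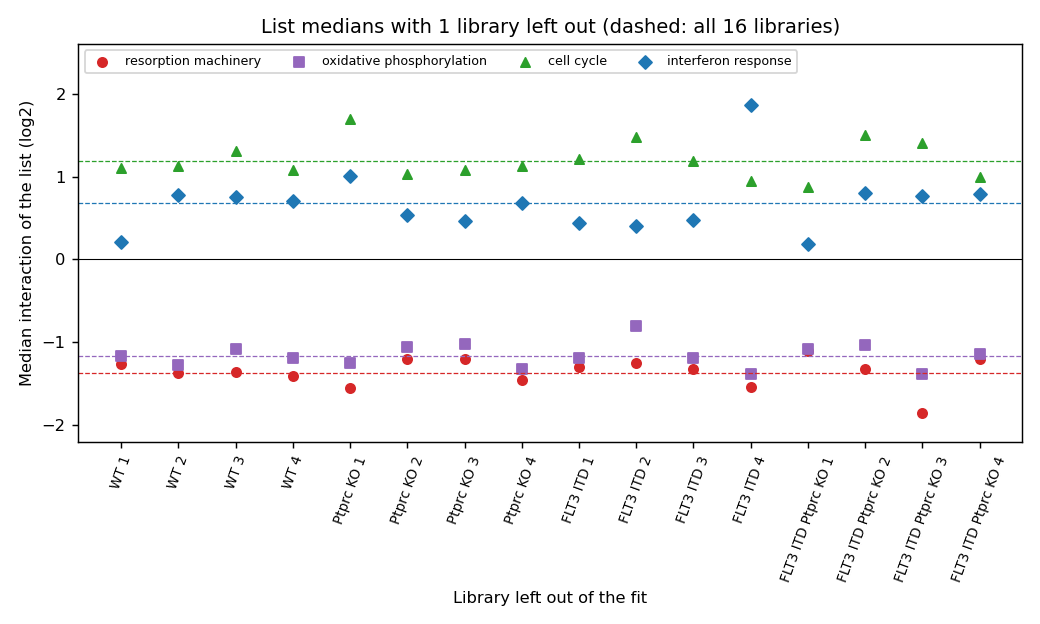
Median interaction (vertical axis, log2) of 4 lists when the library named on the horizontal axis is left out of the fit; dashed lines give the median with all 16 libraries. The resorption and oxidative phosphorylation medians stay between -1.86 and -0.81 and the cell cycle median between 0.87 and 1.70, while the interferon median ranges from 0.18 to 1.86.

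Markers of other cells that bone marrow cultures can hold were examined beside these results. All 9 osteoclast markers had a negative interaction (median -1.90), which overlaps with the resorption and fusion lists. Stromal and osteoblast markers, with 8 of 11 tested and 8 of 8 positive, had a median of 2.61, from -2.10 with normal Flt3 and 0.55 with the duplication, and 0 had an unadjusted p under 0.05. Col1a1 was 0.83, 6.39, 2.58 and 16.7 CPM in WT, 1.02, 0.219, 0 and 3.07 CPM in Ptprc KO, and 0.0326 to 3.09 CPM with the duplication, so WT replicate 4 carried much of the mean. Without it the list's median was 1.62, and over all alternatives, TPM scales included, the median ran from 0.43 to 4.91.

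Neutrophil markers had a median of -3.62 (7 of 9 negative) and monocyte markers -2.10 (5 of 7 negative), with none at an unadjusted p under 0.05. Without FLT3 ITD replicate 4 the medians were -1.46 and -0.96, and without WT replicate 3 they were -4.74 and -3.51. On log2(TPM + 0.1), where 4 monocyte markers passed the filter, their median was 0.92, against 0.33 for all genes. The neutrophil score ran from -1.95 to 3.20 in WT, -0.17 to 4.28 in Ptprc KO, 0.34 to 3.78 in FLT3 ITD and -1.69 to 1.63 in the double mutant. Resident macrophage markers had 0.67 (8 of 11 positive), which was 2.41 without FLT3 ITD replicate 4 and -0.35 without double-mutant replicate 2, and progenitor markers -1.71 (6 of 6 negative), the latter with Gata2 (-2.58, SE 0.88, adjusted p 0.255) and Kit (-1.55, SE 0.59) at 0.276 to 5.85 CPM. Of the eosinophil markers, Prg2 had -3.17 (SE 0.72, adjusted p 0.245; DESeq2 -3.24, adjusted p 0.00985) and Siglecf 3.75 (SE 1.33). Dendritic markers had a median of -0.58 (2 positive, 3 negative of 5 tested), from -3.23 to 2.54. The highest of them was Itgax, which encodes CD11c (2.54, SE 1.00, adjusted p 0.264). It measured 27.7, 13.4, 24.3 and 153 CPM in FLT3 ITD and 82.9, 422, 56.1 and 232 CPM in the double mutant.

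Of lymphoid, erythroid and mast cell markers few could be tested: 0 of 6 mast cell, 1 of 6 B cell, 1 of 7 erythroid and 3 of 8 T and NK cell markers had enough counts. The 3 tested T and NK cell markers had a mean log2 CPM of -0.69 to 4.07, highest within each genotype in WT replicate 3 (3.82), Ptprc KO replicate 4 (3.99), FLT3 ITD replicate 4 (4.01) and double-mutant replicate 2 (4.07), the cultures with the highest inflammatory scores. Megakaryocyte (2 of 5) and endothelial markers (3 of 5, with Kdr at 2.06, SE 0.91) were also few. The part of cell composition in the interactions above was not tested.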

How the data were processed

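RNA of 16 osteoclast cultures, 4 per genotype, was sequenced after poly(A) selection with a directional kit and UMI adaptors, per the labels' protocols. The authors deposited raw counts per gene and TPM values per gene. Per the submitters' processing notes, the tools were UMI-tools 1.1.1, featureCounts 2.0.3, STAR 2.7.6a, cutadapt 4.2 and bcl2fastq 2.20.0.422, with genome build GRCm38.p6; their order, settings and use of strand are not given in the sources used here. Groups came from the sample labels.

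Counts were fitted in edgeR 4.0.16 (R 4.3.3) with its default filter on low counts, TMM scaling, 4 group means, the robust quasi-likelihood test and 12 residual degrees of freedom. Adjusted p-values are Benjamini-Hochberg over all 12093 genes, two-sided, with a threshold of 0.05. SEs are the effect divided by the root of F, and log2 CPM uses a prior count of 2. The 10 genes with the lowest p in each direction and a mean of at least 5 CPM in 1 group were named, with list members. Members and the 17 pathway and 14 cell type lists were chosen with earlier results of these data known. Coordinates are GENCODE vM21 (GRCm38), which held 21894 of 21936 gene IDs. Scripts were tested on simulated counts.

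Alternatives were other scaling and filters, DESeq2 1.42.0, limma 3.58.1 (voom with quality weights; log2(TPM + 1) and log2(TPM + 0.1) with a mean TPM of at least 1), sva 3.50.0, a replicate block, summing a close pair, and leaving out each library. Total counts were 24211724 to 35773313 per library; intervals cover counting error only. Some list members are not reported here.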

Additional observations from a re-analysis of the deposited data

Results flagged for a closer look

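Values are listed here where the highest or lowest culture of a genotype lay far from the other 3 (Dixon's test at the 95% level), or where the response to Ptprc loss differed between backgrounds by a test. Of 160 groups checked, 23 had such a culture, and chance gives about 1 in 20. Possible causes were not tested.

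FLT3 ITD replicate 4 accounted for several. Its mean log2 CPM was 9.15 for resorption genes (others 10.39 to 10.6), 9.763 for lysosomal hydrolases (9.04 to 9.07), 4.056 for the cell cycle (5.96 to 5.98), 4.332 for inflammatory mediators (1.73 to 1.91), 4.414 for STAT5 targets (2.97 to 3.08) and 4.971 for ERK feedback genes (3.54 to 3.68). The close agreement of FLT3 ITD replicates 1 and 3 narrows the range against which it was read. Trip6 stood at a log2 CPM of 2.35 in this culture (3.13 to 3.29), and Rcan1 at 7.98 in FLT3 ITD replicate 2 (6.87 to 7.04).

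In Ptprc KO, replicate 2 had a glycolysis score of 8.13 (others 7.57 to 7.61) and replicate 4 an inflammatory score of 4.125 (1.08 to 1.44). Log2 CPM was 3.66 for Stard13 in replicate 4 (1.69 to 1.81), 3.37 for Spice1 in replicate 1 (2.82 to 2.9) and -3.16 for Rbm44 in replicate 2 (-3.88 in the others), which is a single count.

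In WT, replicate 4 had a phosphatase score of 6.692 (others 6.54 to 6.56), replicate 3 an ERK feedback score of 4.495 (3.65 to 3.75), and replicate 1 a correlation with gene length of 0.167 (0.109 to 0.112). Log2 CPM was 8.69 for Ptprc (8.86 to 8.88) and 2.98 for L1cam (3.72 to 3.75) in replicate 2, 5.03 for Rubcn in replicate 1 (4.84 to 4.87) and -1.54 for Enpp2 in replicate 3 (0.04 to 0.19). In the double mutant, replicate 2 had an MHC class II score of 7.1 (4.61 to 4.88), and log2 CPM of 6.42 for Bmt2 (6.17 to 6.21) and 2.91 for Spice1 (3.5 to 3.61).

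The response of Rbm44 to Ptprc loss differed between the backgrounds by 6.543 on the log2 scale (edgeR adjusted p 0.0309).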

How the results depend on the processing

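The interaction test called 1 gene. It called 0 with a mean count of at least 50, 0 on log2(TPM + 1), 0 on log2(TPM + 0.1), 2 on log2(TPM + 1) with no filter, 165 in DESeq2, 7296 in voom with quality weights, 0 with FLT3 ITD replicates 1 and 3 summed, 0 with replicate 2 also left out, and 0 to 56 without 1 library. Ptprc loss with the duplication called 1 gene, and 984 in DESeq2, 7016 in voom, 2 on log2(TPM + 1), 2 on log2(TPM + 0.1), 7 with no TPM filter, 3 with 1 surrogate variable, 3 with the length trend removed (a fit chosen after seeing the data) and 1 to 1798 without 1 library (1315 without double-mutant replicate 3, 2 without double-mutant replicate 2 or 4). Ptprc loss with normal Flt3 called 4, and 2 with a mean count of at least 50, 11 in DESeq2, 556 in voom, 2 on log2(TPM + 1), 8 with 1 surrogate variable and 2 to 7 without 1 library. Signs turned for Nfatc1 (0.25 with 1 surrogate variable), Tnfrsf11a (0.04 on each TPM scale, 0.08 with 1 surrogate variable) and Csf1r (0.11 on each TPM scale; without 1 library -0.40 to 0.01, the latter without double-mutant replicate 1). The median of all genes was 0.31 on log2(TPM + 1), 0.33 on log2(TPM + 0.1) and 0.08 with no TPM filter. The signs on TPM scales are to be read against this shift. The causes were not tested. Whether replicate numbers pair the cultures was not settled, and the main fit has no replicate term. Of 24 same-numbered pairs, 12 correlated above 0.1 (r from -0.63 to 0.85), and 8 of 16 cultures correlated best with their own number. With a replicate block the interaction called 0 genes, Ptprc loss with the duplication 1 and with normal Flt3 1. Genes with few counts, such as Flt3, cannot be described at this depth.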
